A study of Mus musculus with 6 samples.

Results

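Genes of the 3 families of high mobility group (HMG) architectural chromatin proteins were examined by RNA sequencing in Lap2alpha knockout (KO) and wild-type (WT) mouse dermal fibroblasts. The 9 genes were chosen by symbol: Hmgn1, Hmgn2, Hmgn3 and Hmgn5 of the HMGN class, Hmga1 and Hmga2 of the HMGA class, and Hmgb1, Hmgb2 and Hmgb3 of the HMGB class. They are 9 of the 28293 genes in the count files and 9 of the 15081 genes with enough reads to be tested, so none was lost to the filter on low counts. The study has 3 KO and 3 WT libraries of polyadenylated RNA from a dermal fibroblast cell line. Both groups were kept in the same medium, DMEM with fetal calf serum and antibiotics, and the labels give no other treatment. The knockout is named for LAP2alpha, a LAP2 isoform without the transmembrane segment that joins lamin A/C inside the nucleus. The labels do not say how the knockout was made, whether it is 1 clone, or whether the libraries came from separate cultures. The p-values therefore measure only the spread between these libraries, and a difference between lines or clones cannot be told apart from the loss of LAP2alpha.

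HMG proteins are small, abundant chromatin proteins that bend, loosen or bridge DNA rather than read long sequence motifs. HMGN proteins bind nucleosomes and weaken compaction by linker histone, HMGA proteins hold AT-rich DNA in the minor groove through AT-hooks, and HMGB proteins bend DNA with paired HMG boxes and an acidic tail. HMGN5 is known as a binding partner of LAP2alpha, and HMGA2 as an embryonic protein that returns in transformed cells and is a classical target of the let-7 microRNAs. HMGB2 and the HMGA proteins are usually more abundant in dividing than in resting cells.

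The library totals were 25768678 to 27281473 counts in KO and 22159339 to 26553616 counts in WT, and each HMG gene had between 1312 and 22556 counts in every library. KO libraries had 3.76 to 4.46% of counts on mitochondrially encoded genes and WT libraries 1.99 to 2.45%. Of the 10 fibroblast markers, 9 were called higher and Thy1 was called lower in KO, beside 37.7% and 37.5% of all tested genes. The 10 markers summed to 22797 to 24230.3 CPM in KO and 6039.8 to 6416 CPM in WT. Here CPM is the number of a gene's reads in every 1000000 counts of the library, and a gene was called when its Benjamini-Hochberg adjusted p in edgeR's quasi-likelihood test, over all tested genes, was under 0.05. The 5 endothelial markers summed to 0.233 to 0.88 CPM in KO and 1.3 to 1.47 CPM in WT, and the 2 immune markers with a row to 0.55 to 1.36 CPM in KO and 0.677 to 0.689 CPM in WT. Ptprc, the pan-leukocyte marker, was at 0 in all KO libraries. Keratinocyte markers summed to 4.9 to 6.49 CPM in KO and 6.82 to 8.53 CPM in WT, adipocyte markers to 2.16 to 2.41 CPM in KO and 6.49 to 7.22 CPM in WT. Melanocyte and Schwann markers summed to 5.64 to 8.07 CPM in KO and 2.67 to 4.51 CPM in WT, muscle markers to 3.07 to 3.09 CPM in KO and 0.587 to 0.829 CPM in WT. Tmpo, the gene that encodes LAP2alpha together with the membrane-bound LAP2 isoforms, had 135, 122 and 131 CPM in KO and 254, 249 and 252 CPM in WT, with all isoforms counted as 1 gene. Of its partners, Banf1 was called lower and Lmna higher in KO, and Rb1 was not called with the scaling used here but was called higher under library totals alone.

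The HMG genes were mostly lower in KO. Of the 9 genes, 8 were called lower, against a background of 37.5% of tested genes called lower, and Hmgn3 alone was called higher, against a background of 37.7%. In either direction 75.1% of tested genes were called, so a call by itself set no HMG gene apart. Hmga1, Hmga2, Hmgb2 and Hmgb3 were called and at least 2-fold lower, a class that held 11.4% of tested genes, and none was called and at least 2-fold higher, where 16.7% of tested genes stood. The KO values lay entirely below the WT values for 7 of the 9 genes (34.6% of tested genes), entirely above them for Hmgn3 (42.2% of tested genes), and overlapped them for Hmgn5. Groups without overlap in either direction were found for 8 of the 9 genes and for 76.8% of tested genes. The median log2 fold change of the 9 genes was −0.94, and that of all tested genes was 0.0083. In RNA from whole cultures, fewer cells expressing a gene and less of its RNA per cell cannot be told apart.

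**Figure D1:**
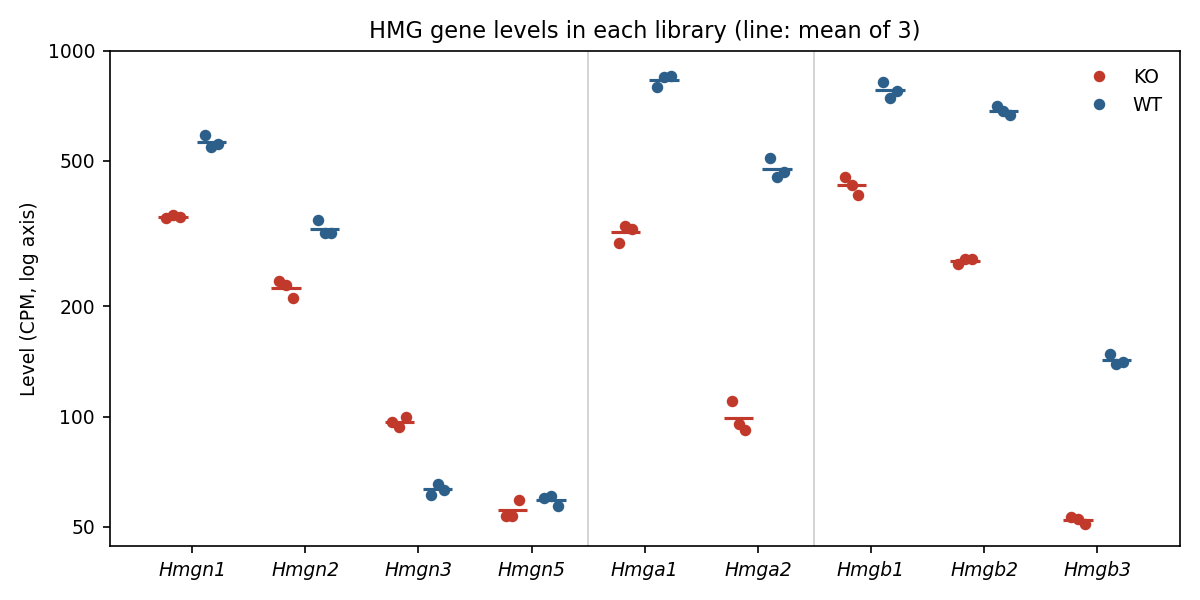
Level of each HMG gene in CPM (log axis) in every KO and WT library, with the mean of 3 libraries as a line. The KO points lie below the WT points for 7 genes, above them for Hmgn3 and among them for Hmgn5.

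The HMGA class showed the largest decrease, and Hmga2 fell most among the 9 genes. Hmga2 (ENSMUSG00000056758) lies on the minus strand at chr10:120361275-120476469 of GRCm38. It had 110.2, 95.4 and 92 CPM in KO libraries, against 510.4, 450.4 and 466 CPM in WT libraries. The highest KO library was far below the lowest WT library. Hmga2 was 5.06-fold lower in KO, or −2.34 on the log2 scale (SE 0.0791, edgeR adjusted p = 2.65e-09). Its 95% interval by the normal approximation was −2.49 to −2.18, and 1.41% of tested genes had a lower fold change. Hmga1 (ENSMUSG00000046711, plus strand, chr17:27556497-27563674), which encodes the more widely expressed member of the class, had 299, 332 and 325 CPM in KO libraries, against 798, 849 and 852 CPM in WT libraries. The groups were again well apart, with a 2.76-fold lower level in KO, −1.46 on the log2 scale (SE 0.057, adjusted p in edgeR 6.25e-09). Small parts of both genes lie opposite other annotated genes, 2.07% of the exonic bases of Hmga2 and 4.8% of those of Hmga1.

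The HMGB class fell as a whole. Hmgb2 (ENSMUSG00000054717, plus strand, chr8:57511907-57515999), which encodes the HMGB protein tied to dividing cells and germ cells, had 262, 269 and 269 CPM in KO libraries, against 705, 683 and 669 CPM in WT libraries. The 3 libraries of each group were close together, and Hmgb2 was 2.71-fold lower in KO (−1.44 ± 0.0493 on the log2 scale, estimate ± SE, adjusted p in edgeR 2.88e-09). Hmgb3 (ENSMUSG00000015217, plus strand, chrX:71555918-71560676), known from embryos and blood progenitors, had 53, 52.5 and 50.9 CPM in KO libraries, against 148, 139 and 141 CPM in WT libraries. It was 2.88-fold lower in KO (−1.53 ± 0.0525 on the log2 scale, estimate ± SE, adjusted p in edgeR 2.91e-09). Hmgb1 (ENSMUSG00000066551, minus strand, chr5:149046702-149184489) encodes the ubiquitous member, which also acts outside cells as a danger signal. It had 453, 430.1 and 403 CPM in KO libraries, against 824, 742 and 777 CPM in WT libraries. Its decrease was smaller, 1.92-fold, with no overlap between the groups (−0.94 ± 0.0608 on the log2 scale, estimate ± SE, adjusted p in edgeR 2.04e-07).

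The HMGN class was the mixed one. Hmgn1 (ENSMUSG00000040681, minus strand, chr16:96120618-96127729) and Hmgn2 (ENSMUSG00000003038, minus strand, chr4:133964738-133968650) encode the short, widely expressed HMGN proteins. Hmgn1 had 348, 356 and 351 CPM in KO libraries, against 588, 546 and 555 CPM in WT libraries, a change of −0.76 ± 0.0502 on the log2 scale (adjusted p in edgeR 2.55e-07). Hmgn2 had 234, 229 and 211 CPM in KO libraries, against 344, 317 and 318 CPM in WT libraries, a change of −0.62 ± 0.0584 on the log2 scale (adjusted p in edgeR 4.02e-06). Both were lower in every KO library than in any WT library, by 40.8% and 34.7% in the fit. Hmgn3 (ENSMUSG00000066456, minus strand, chr9:83109948-83146685) encodes an HMGN protein of more restricted expression. It went the other way, with 96.8, 93.4 and 100 CPM in KO libraries, against 61.1, 65.5 and 63.1 CPM in WT libraries. Hmgn3 was 1.45-fold higher in KO (0.54 ± 0.055 on the log2 scale, estimate ± SE, adjusted p in edgeR 7.36e-06). An antisense gene covers 13.6% of the exonic bases of Hmgn3, and without the strand setting of the counting, reads of the pair cannot be told apart.

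Hmgn5 encodes the long HMGN protein with an acidic C-terminal region that binds LAP2alpha, and its RNA differed least. Hmgn5 (ENSMUSG00000031245, minus strand, chrX:109004534-109013404) had 53.5, 53.6 and 59.3 CPM in KO libraries, against 59.9, 60.8 and 57 CPM in WT libraries. The highest KO library exceeded the lowest WT library, so the groups overlapped. The fitted difference was −0.17 on the log2 scale (SE 0.0626), or 11.2% lower in KO. Its 95% interval by the normal approximation, which is too narrow for so few libraries, was −0.29 to −0.05. Hmgn5 was called lower with an edgeR adjusted p of 0.0289. This call did not hold when KO replicate 1 (adjusted p = 0.0922), KO replicate 2 (adjusted p = 0.117) or WT replicate 2 (adjusted p = 0.094) was left out. It was also lost in edgeR under upper-quartile scaling (adjusted p = 0.132) and library totals alone (adjusted p = 0.176), and over 15 alternatives the adjusted p ran over 0.00535 to 0.176. The other 8 genes kept their direction and call in all 15 alternatives.

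**Figure D2:**
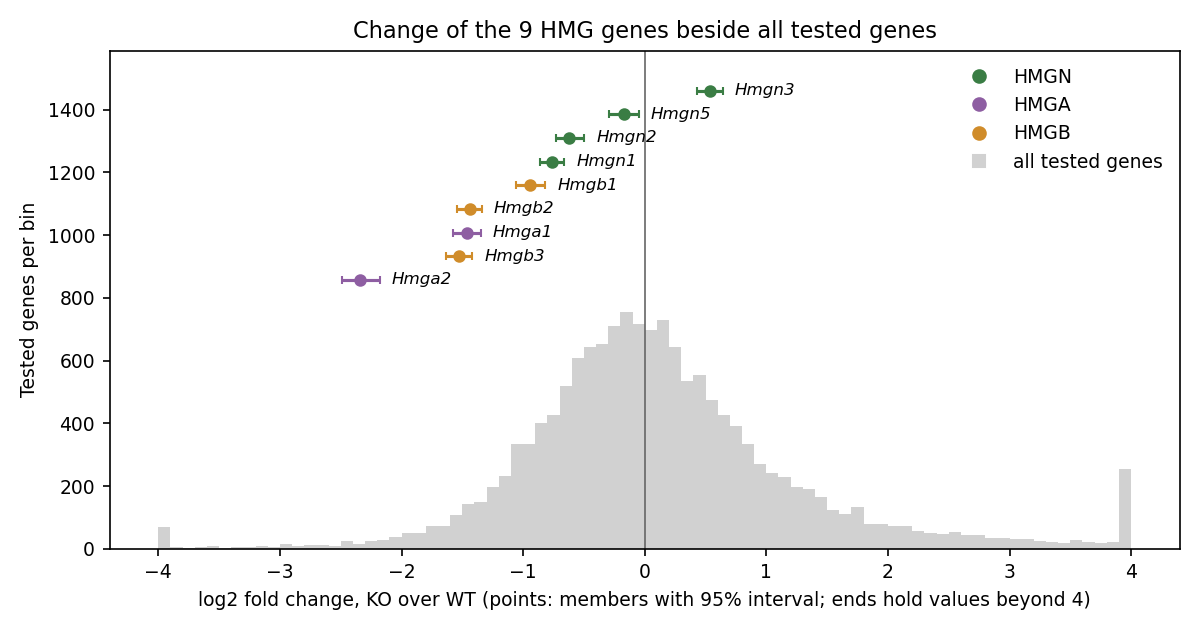
log2 fold change, KO over WT, of each HMG gene with its 95% interval by the normal approximation, over the distribution of all tested genes in bins. Hmga2 lies at −2.34 on the far left, Hmgn5 is near 0 and Hmgn3 stands on the right at 0.54.

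Levels of different genes were compared per length, as counts per exonic base scaled to sum to 1000000 in a library (TPM). In KO the order was Hmga1 (326 ± 16.8 TPM), Hmgn1 (237 ± 1.47), Hmgb2 (193 ± 3.26), Hmgb1 (185 ± 10.5), Hmgn2 (159 ± 8), Hmgn3 (112 ± 5.04), Hmgn5 (62.3 ± 4.25), Hmgb3 (50.7 ± 0.915) and Hmga2 (31.8 ± 3.16). In WT it was Hmga1 (849 ± 44.5 TPM), Hmgb2 (494 ± 4.71), Hmgn1 (379 ± 11.5), Hmgb1 (337 ± 15.6), Hmgn2 (231 ± 7.72), Hmga2 (152 ± 8.36), Hmgb3 (138 ± 3.41), Hmgn3 (73.3 ± 3.24) and Hmgn5 (66.3 ± 1.47, mean ± SD, n = 3 libraries in each group). Hmgb2 and Hmgb1 overlapped across KO libraries, and every other pair of neighbours in either order was separated. Hmga2 thus stood last in KO and sixth in WT, while Hmgn3 stood sixth in KO and eighth in WT. This order depended on the length used and on near-identical copies, which these levels leave out. With the longest transcript as length, Hmgb1 stood above Hmgb2 in KO (18.1% and 12.2% of the summed HMG level) and in WT (16.7% and 15.8%), and in KO Hmgn1 and Hmga1 overlapped at the top (19.4% and 19.2%) and Hmga2 overlapped Hmgn5 at the bottom (3.13% and 3.45%). With the counts of copies added, Hmgb1 stood above Hmgn1 in KO (21.1% and 12.1%) and in WT (20.3% and 9.1%), and Hmga2 (3.58%) stood below Hmgb3 (3.93%) in WT.

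Summed over the 9 genes, the per-length level was 1358 ± 2.79 TPM in KO and 2719 ± 36.7 TPM in WT, so KO held 49.9% of the WT level. The classes fell unequally. HMGA summed to 358 ± 13.6 TPM in KO and 1001 ± 38.8 TPM in WT, 35.7% of the WT sum. HMGB summed to 429 ± 8.38 TPM in KO and 969 ± 22.6 TPM in WT, which is 44.3%. HMGN summed to 571 ± 5.77 TPM in KO and 749 ± 14.8 TPM in WT, which is 76.3%. Within HMGN, Hmgn3 made up 19.7 ± 0.727% of the class in KO and 9.79 ± 0.615% in WT, and Hmgn1 made up 41.5% in KO and 50.5% in WT. Hmga2 made up 8.93% of the HMGA sum in KO and 15.2% in WT.

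**Figure D3:**
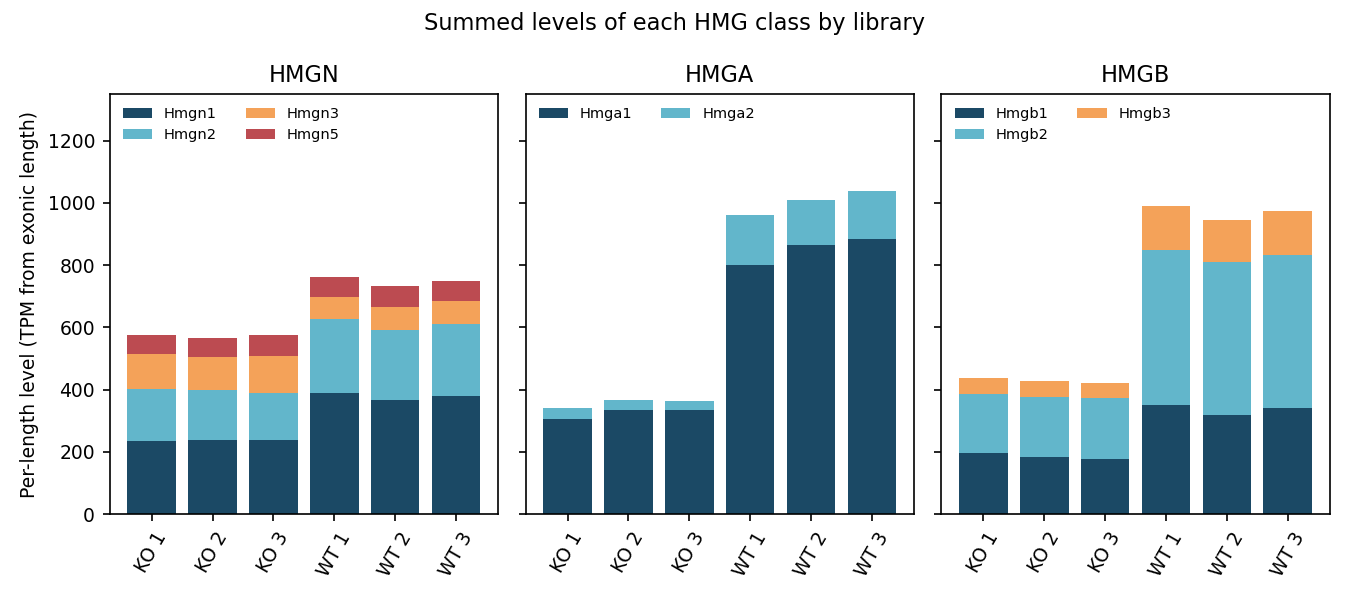
Summed per-length level (TPM) of the HMGN, HMGA and HMGB genes in each KO and WT library, stacked by gene. The HMGA bars of KO reach 35.7% of the WT bars and the HMGN bars 76.3%, with a larger Hmgn3 segment in KO.

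Ratios between members of a class within a library do not depend on the scaling between libraries. The ratios given here leave out the counts of near-identical copies. All 10 within-class pairs were compared, and in each the KO and WT ratios did not overlap. Levels of single genes did not overlap for 76.8% of tested genes, and the share over other gene pairs was not computed. The 10 pairs share genes, so they are not independent. The widest gap was Hmgn1 over Hmgn3, with a ratio of 2.11 in KO and 5.18 in WT, a difference of −1.29 on the log2 scale. Hmga1 over Hmga2 was 10.3 in KO and 5.61 in WT, a difference of 0.88. The narrowest was Hmgb2 over Hmgb3, at 3.81 in KO and 3.58 in WT, a difference of 0.09. There the lowest KO log2 ratio (1.88) lay just above the highest WT log2 ratio (1.87). Each pair gave p = 0.1 in a two-sided exact permutation test and 0.1 after Benjamini-Hochberg adjustment over the 10 pairs, the smallest value that 3 against 3 libraries allow, so this design could not reach 0.05.

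HMG genes are among the genes with many processed pseudogenes, and reads may be shared between a gene and its copies. The files held rows for 87 annotated near-identical copies, at least 95% identical over 100 bases or more, of which 63 resemble Hmgb1, 12 Hmgn2, 5 Hmgb2, 4 Hmgn1 and 1 each Hmgn5, Hmga1 and Hmgb3. Hmgn3 and Hmga2 had none. Of the 42 copies tested, 34 were called lower, 0 were called higher, and 8 were not called; the 34 stand beside the background of 37.5% called lower. These rows share sequence with the genes, so they are not independent of them, and how reads that match several places were counted is not given in the sources used here.

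Several copies stood near their parent. Hmga1b on chromosome 11, annotated as protein-coding and 99.8% identical to Hmga1 over 1602 bases, had 181 CPM in KO and 462 CPM in WT (log2 fold change −1.43, edgeR adjusted p = 6.25e-09). Gm4739, a copy of Hmgb2, had 65.2 CPM in KO and 171 CPM in WT (log2 fold change −1.47). Gm6104, a copy of Hmgb3, had 10.3 CPM in KO and 30.1 CPM in WT (log2 fold change −1.63). Gm21596, a copy of Hmgb1 with 118 CPM in KO and 268 CPM in WT, was lower by more than its parent (log2 fold change −1.26). The 8 copies not called were Gm7862 of Hmgn1 (log2 fold change 0.00), Gm10182, Gm6750 and Gm10357 of Hmgn2 (−0.11, −0.26 and 0.03), and Hmgb1-ps9, Gm5853, Gm12261 and Hmgb1-ps5 of Hmgb1 (0.09, −0.35, −0.31 and −0.27). Copies took 55.2 to 59.1% of the joint count of Hmgb1 and its copies in KO and 57.6 to 62.9% in WT, and 42.4 to 44.5% in KO and 43.9 to 44.8% in WT for Hmgb2. When the counts of copies were added to their parent, all 9 genes stayed called in the same direction. Hmgb1 then had a log2 fold change of −1.10, against −0.94 without copies, and was thus also at least 2-fold lower.

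**Figure D4:**
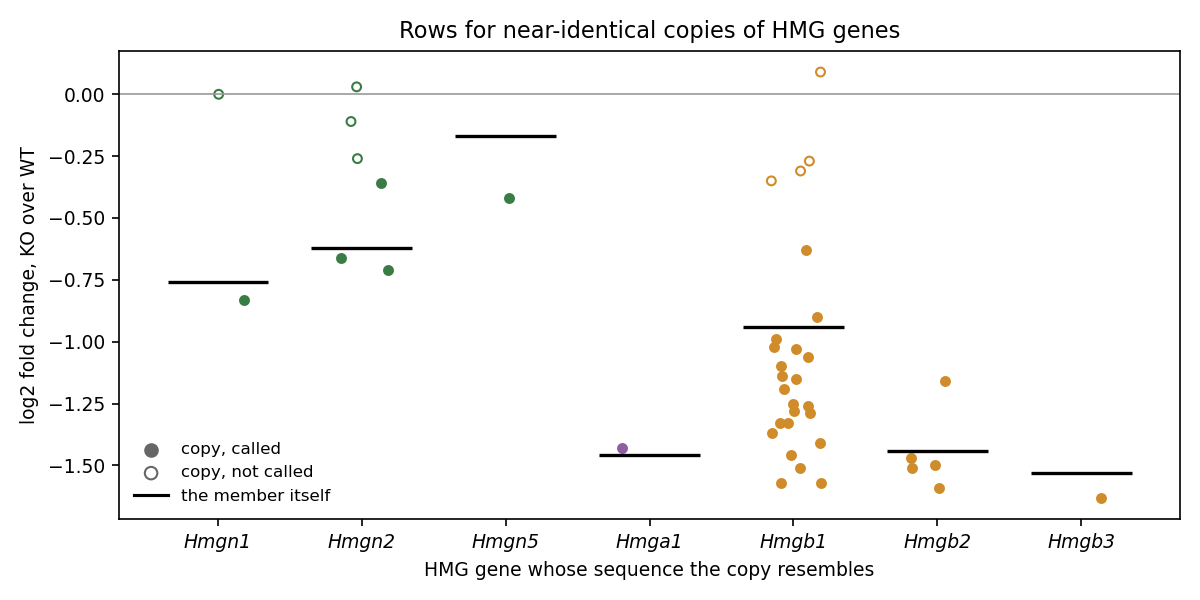
log2 fold change, KO over WT, of each tested copy, by the HMG gene it resembles, with the gene itself as a black line. Filled points were called and open points were not; the Hmgb2 copies lie between −1.59 and −1.16, and 4 of the 26 Hmgb1 copies are open.

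The promoters of these genes were read from the RefSeq windows of GRCm38.p6, 250 bases before to 50 bases after each start site, which hold 8 of the 9 genes in 10 windows. CCAAT, the letters bound by NF-Y, was found on either strand in 6 of the 10 windows and in 37.4% of all 32851 windows. The CHR letters TTTGAA or TTCGAA, bound by the DREAM and MuvB complexes at genes of mitosis, were in 2 of the 10 windows and in 19.2% of all. The E2F letters TTTCCCGC, TTTGGCGC, TTTCGCGC or TTTGCCGC were in 0 of the 10 and in 2.26% of all. No match overlapped another. The 3 windows with 3 or more CCAAT matches are those of the HMGB genes, and they are shown with that of Hmgn5, the gene that differed least. Capitals mark the CCAAT and CHR matches, written as their reverse complement where the match lies on the other strand, and each sequence is given 5′ to 3′ on the strand of its gene.
Hmgb2, chr8:57511593-57511892, plus strand: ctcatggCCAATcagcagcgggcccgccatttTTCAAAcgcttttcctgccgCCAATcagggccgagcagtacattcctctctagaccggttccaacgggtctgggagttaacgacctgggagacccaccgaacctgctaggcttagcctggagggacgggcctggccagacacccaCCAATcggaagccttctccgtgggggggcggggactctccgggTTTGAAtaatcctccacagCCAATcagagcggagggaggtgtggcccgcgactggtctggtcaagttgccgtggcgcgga
Hmgb3, chrX:71555667-71555966, plus strand: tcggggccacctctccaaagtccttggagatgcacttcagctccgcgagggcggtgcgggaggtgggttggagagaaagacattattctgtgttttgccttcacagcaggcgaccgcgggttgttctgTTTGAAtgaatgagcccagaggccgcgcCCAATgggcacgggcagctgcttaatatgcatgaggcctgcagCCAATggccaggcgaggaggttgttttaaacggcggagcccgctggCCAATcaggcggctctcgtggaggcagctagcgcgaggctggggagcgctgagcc
Hmgb1, chr5:149053008-149053307, minus strand: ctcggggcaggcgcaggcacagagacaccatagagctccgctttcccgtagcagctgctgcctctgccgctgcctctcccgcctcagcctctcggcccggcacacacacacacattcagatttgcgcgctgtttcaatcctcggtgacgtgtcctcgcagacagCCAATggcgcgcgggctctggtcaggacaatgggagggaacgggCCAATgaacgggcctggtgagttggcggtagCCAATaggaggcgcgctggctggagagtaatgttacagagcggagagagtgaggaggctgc
Hmgn5, chrX:109013331-109013630, minus strand: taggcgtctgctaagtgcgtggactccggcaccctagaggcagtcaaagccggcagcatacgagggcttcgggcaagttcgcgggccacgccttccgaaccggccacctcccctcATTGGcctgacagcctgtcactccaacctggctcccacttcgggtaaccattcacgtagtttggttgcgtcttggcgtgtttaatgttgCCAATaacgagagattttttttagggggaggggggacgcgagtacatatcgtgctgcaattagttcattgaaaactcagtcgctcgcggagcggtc

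Hmgb2 held 4 CCAAT matches, the nearest 11 bases before the start site, and 2 CHR matches, and Hmgb3 held 3 CCAAT matches and 1 CHR match. Hmgb1 held 3 CCAAT matches in the window shown and none in its other window. Hmgn1 held 2 CCAAT matches, Hmgn2 held 1, Hmgn5 held 2, and neither Hmga1 nor Hmga2 held any. Of 10026 tested genes with a window, 112 held a CHR match and 3 or more CCAAT matches in 1 window, as Hmgb2 and Hmgb3 do. Their median log2 fold change was −0.28 and 51.8% of them were called lower. Over all 10026 the median was 0 and 38.6% were called lower. Broader groups lay nearer to that. The 609 genes with 3 or more CCAAT matches had a median of −0.09 and 43% called lower. The 716 with CHR and CCAAT matches in 1 window had −0.04 and 40.9%. The group of 112 was chosen after the matches in the HMG promoters were seen, and all these groups are descriptions with no test.

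The let-7 family was taken up because Hmga2 is its classical target. The seed of let-7, bases 2 to 8 of the mature microRNA, pairs with the letters CTACCTC in a 3′ UTR. The longest annotated 3′ UTR of Hmga2, 3014 bases long, held 4 such matches, and only 9 of 12028 tested genes with a 3′ UTR (0.0748%, Hmga2 included) held 4 or more. That of Hmga1 held 1, and the other 7 HMG genes held 0; at least 1 match was present in 10.6% of these genes. The mature sequence of let-7a, from RefSeq (GRCm38.p6, chr13:48538239-48538260, minus strand), is printed with its seed in capitals, and the sites, from the GENCODE M21 transcripts, with the seed match in capitals and their first base counted from the start of the 3′ UTR.
mmu-let-7a-5p: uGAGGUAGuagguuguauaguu
Hmga2, match at base 58: gccgacattcaatttCTACCTCa
Hmga2, match at base 1295: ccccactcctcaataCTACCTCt
Hmga2, match at base 1733: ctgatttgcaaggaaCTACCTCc
Hmga2, match at base 2591: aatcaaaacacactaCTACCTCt
Hmga1, match at base 801: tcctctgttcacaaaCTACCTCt

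Let-7 itself was not measured in these libraries. Of 7 tested genes that are other known let-7 targets, 3 were called lower, 0 were called higher and 4 were not called. Over all tested genes, 37.5% were called lower and 37.7% higher. The 7 targets had a median log2 fold change of −0.02. The lower genes were Igf2bp1 (32.9 CPM in KO and 63.9 CPM in WT, log2 fold change −1.03), Igf2bp2 (69 CPM in KO and 117 CPM in WT, −0.84) and Plagl2 (−0.61). By seed matches, Igf2bp1 and Hic2 held 4, as many as Hmga2, and Nr6a1 held 8, while Arid3a held 2 and Igf2bp2, Igf2bp3 and Plagl2 held 1 each. Of those with 4 or more, Igf2bp1 was called lower, and Hic2 (log2 fold change 0.11) and Nr6a1 (0.19) were not called. Lin28a and Lin28b, whose proteins block let-7 maturation, were at 0 and 0.126 CPM in KO and 0.0126 and 0.193 CPM in WT, too low to test. Of the 8 tested genes of let-7 processing, 4 were called higher and 3 lower, beside 37.7% and 37.5% of all tested genes. Tut4, a uridylyltransferase, was among the higher ones (72.5 CPM in KO and 28.8 CPM in WT, log2 fold change 1.25). Xpo5, the nuclear export factor, was among the lower ones (79.8 CPM in KO and 182 CPM in WT, −1.27). Dis3l2, which degrades uridylated precursors, was not called. Over tested genes grouped by seed matches, the median log2 fold change was 0.02 with none (10759 genes) and 0.06 with 1 (1115 genes). It was −0.04 with 2 (132 genes) and −0.14 with 3 or more (22 genes, Hmga2 among them). In that order 39.2%, 34.7%, 41.7% and 40.9% were called lower, and 40.3%, 43.3%, 30.3% and 18.2% were called higher. A difference between these groups was not tested.

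Genes that carry an HMG box or act with HMG proteins did not all move with the HMG genes. Of 23 tested genes with an HMG box outside the 3 families, 12 were called higher, 6 lower and 5 not called, beside 37.7% called higher and 37.5% called lower over all tested genes, and their median log2 fold change was 0.15. Sox5, a factor of cartilage development, had 9.76 CPM in KO and 1.25 CPM in WT (log2 fold change 2.88). Ssrp1, picked for its decrease after its value was seen and encoding a subunit of the histone chaperone FACT, had 296 CPM in KO and 641 CPM in WT (log2 fold change −1.19, edgeR adjusted p = 8.16e-08). Tcf7l1, a Wnt pathway factor, had 35.9 CPM in KO and 7.17 CPM in WT (log2 fold change 2.24). Hbp1, a repressor with an HMG box, had 38 CPM in KO and 13.2 CPM in WT (log2 fold change 1.45), and Tcf7 had 8.07 CPM in KO and 0.452 CPM in WT (log2 fold change 4.07). Of the SET complex, in which HMGB2 is a subunit, 3 of 4 tested genes were called lower, beside the same 37.5% of all tested genes. They were Nme1 (59.1 CPM in KO and 148 CPM in WT, log2 fold change −1.40), Set (−0.61) and Apex1 (−0.39). Anp32a was called higher (0.43). Among genes of HMGB1 signalling, Cxcl12, a chemokine that pairs with HMGB1 outside cells, had 1567 CPM in KO and 204 CPM in WT (log2 fold change 2.87). Tlr2 was also called higher (1.66), while Tlr4 (0.15) and Myd88 (−0.21) were not called. Of the 8 listed genes, Ager, Tlr9, Cxcr4 and Cd24a were too low to test.

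Linker histones, which HMGN proteins oppose on nucleosomes, were called higher in all 5 tested genes, beside 37.7% of all tested genes. Their log2 fold changes had a median of 1.33. Hist1h1d (2.34 CPM in KO and 0.886 CPM in WT), Hist1h1e (2.02 and 0.807) and H1fx (2.1 and 0.602) were at low levels. Hist1h1a and Hist1h1b were too low to test. The libraries were poly(A)-selected, so histone RNA without a poly(A) tail was largely left out. Hist1h1c had 84.7 CPM in KO and 15 CPM in WT (log2 fold change 2.42), and H1f0 had 719.6 CPM in KO and 484 CPM in WT (0.50).

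Genes of cell division were lower in KO together with most HMG genes. All 20 tested replication genes were called lower, beside 37.5% of all tested genes. Their median was −1.19 on the log2 scale, and their summed level was 1385 to 1454 CPM in KO and 3254 to 3321 CPM in WT. Of 18 tested genes of G2 and mitosis, 16 were called lower, beside the same 37.5%. The 18 genes had a median of −1.07 and a summed level of 1867 to 1908 CPM in KO and 3213 to 3300.1 CPM in WT. The exceptions were Cenpe, a kinetochore motor, called higher (0.16), and Mki67, a proliferation antigen, with 213 CPM in KO and 201 CPM in WT and not called (0.01). The HMG genes summed to 1861 to 1912 CPM in KO and 3853 to 4039 CPM in WT. The part that a change in the number of dividing cells has in the HMG decreases was not tested.

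**Figure D5:**
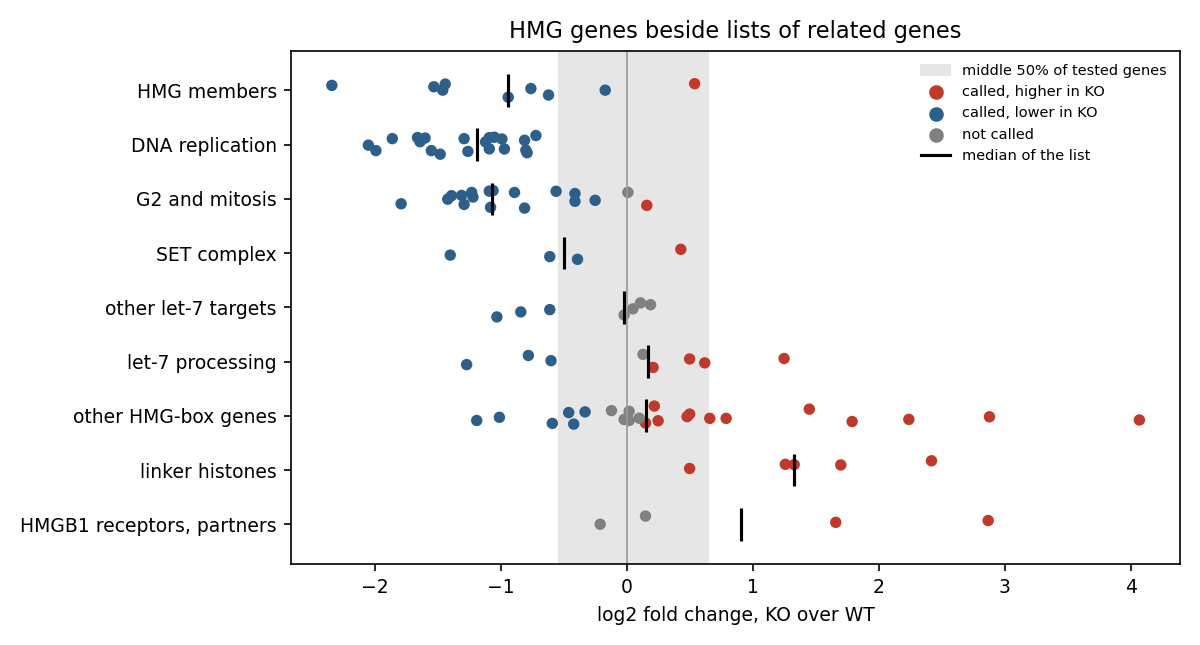
log2 fold change, KO over WT, of each tested gene in the HMG families and in the related lists, coloured by its call, with the median of each list as a black line. The replication genes all lie below 0, the linker histones all above it, and the other HMG-box genes lie on both sides.

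Genes beside the HMG genes on their chromosomes moved in both directions. Hmgb2 lies between Sap30 and Galnt7, which were both called lower (log2 fold changes −0.84 and −1.10, edgeR adjusted p = 2.83e-06 and 2.79e-07). Hmga2 lies between Llph (−0.51) and Msrb3 (1.47), which were called in opposite directions. Dhdds lies 378 bases from Hmgn2 and was not called (0.12, adjusted p = 0.155 in edgeR). Over the 6 libraries, the profiles of centred log2 CPM nearest to Hmga2 by Euclidean distance were those of Il1rl1, Mtmr10 and Cep55 (distances 0.118, 0.148 and 0.173), nearest to Hmgn3 those of Vps53, Tmem141 and Arhgef7 (0.0337, 0.0637 and 0.0707), and nearest to Hmgn5 those of Rabepk, Naca and Med11 (0.0506, 0.0596 and 0.0674).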

How the data were processed

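The deposited files hold raw read counts per Ensembl gene, 1 file per library, as the authors made them. The authors aligned reads with STAR 2.7.10b to GRCm38, per the submitters' processing notes; the counting program, its annotation, its strand setting and its rule for multiply matching reads were not given in the sources used here. Libraries were made with a directional kit after poly(A) selection, per the labels' protocols. Symbols came from GENCODE M21 (28230 of 28293 identifiers matched, 63 did not).

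The KO libraries were set against the WT libraries in edgeR 4.0.16 (R 4.3.3), scaled by TMM and filtered by filterByExpr, with a quasi-likelihood test and Benjamini-Hochberg adjustment over the 15081 tested genes. The procedure was checked on simulated data, in which most genes were unchanged. Here 75.1% of tested genes were called, so that check cannot speak to the scaling of these data. No pair of replicates of a group agreed within counting noise, so none was taken as a repeat sequencing of another. Each library was counted as 1 replicate, which does not show that the libraries came from separate cultures. Copies were found with BLAST 2.17.0 of GENCODE transcripts, leaving out genes that overlap the member. Per-length levels used the union of exons. Promoters and microRNAs came from RefSeq tables, and protein sequences were not analysed here. Within-class ratios and figures used Python 3.11.15 with scipy 1.17.1 and matplotlib 3.10.9.

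Alternatives covered scaling (library totals, upper quartile, size factors of DESeq2 1.42.0), filtering (none, or 1 CPM in 3 libraries), the test (limma-voom from limma 3.58.1, or the Wald test of DESeq2), the replicate number as a block, each library left out, copies added to their parent, and another gene length. Genes named are the 9 members, their tested copies and neighbours, up to 4 members of each related list with the smallest p, exceptions to a list's direction or call where they are 3 or fewer, and the 3 closest profiles of Hmga2, Hmgn3 and Hmgn5. Ssrp1 and further genes named in the let-7 lists were picked with their values in view. Some listed genes too low to test were named as well. The members and lists were chosen with earlier results of these data known.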

Additional observations from a re-analysis of the deposited data

How the results depend on the processing

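Of the 9 HMG genes, 8 kept their direction and call under all 15 alternatives, with log2 fold changes of −2.41 to −2.26 for Hmga2, −1.51 to −1.39 for Hmga1, −1.10 to −0.87 for Hmgb1, −1.48 to −1.36 for Hmgb2, −1.56 to −1.45 for Hmgb3, −0.79 to −0.68 for Hmgn1, −0.66 to −0.54 for Hmgn2 and 0.49 to 0.61 for Hmgn3. Hmgn5 kept its direction throughout (−0.24 to −0.09) and its call in 10 of 15. With the replicate number as a block, 11922 of 15537 tested genes were called and all 9 HMG calls were kept; without it 11330 of 15081 were, and the low-count filter, which reads the design, differed too. Same-numbered KO and WT libraries deviated together with correlations of 0.453, −0.088 and 0.307. Libraries of different numbers had correlations of −0.607 to 0.563. With 3 libraries in each group these values cannot settle whether the numbers pair the libraries, and the labels do not say so. Library totals alone put the median log2 fold change of all genes at 0.0865, against 0.0083, and the higher share of calls at 54.6%, against 50.1%. With the longest transcript as length, KO held 51.3% of the summed WT level, and with copies added 47.5%. The cause of these shifts was not tested. For Hmgn5 the spread between libraries was 6% of the mean in KO and 3.35% in WT, where counting alone would give 2.61% in KO and 2.64% in WT.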
